A study of Mus musculus with 6 samples.

Results

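The genes of cholesterol and fatty acid synthesis were followed in mouse pancreatic islets whose beta cells overproduced the Notch ligand Jag1. The members were taken by name from the gene table: 18 sterol synthesis enzymes, 6 regulators and transport proteins of the same system, and 6 fatty acid synthesis enzymes. These are 30 of the 34945 genes listed, and all 30 had enough counts to be among the 14073 genes tested. Every mouse carried RIP-Cre, in which the rat insulin promoter drives Cre recombinase in beta cells, together with Rosa26-rtTA, a doxycycline-dependent activator, and every mouse had doxycycline in its drinking water for 8 weeks. The 3 Jag1 libraries came from mice that were also tetO_Jag1+, and the 3 control libraries from mice that were tetO_Jag1-, so both groups shared the Cre, the activator and the drug. Whole islets were sequenced, and they hold endocrine cells other than beta cells as well as some exocrine and stromal tissue. The labels do not state whether each library was a separate mouse, so each p-value reflects the spread among these libraries only, which may be technical.

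Cells make cholesterol from acetyl-CoA through mevalonate, squalene and lanosterol, and they make fatty acids by carboxylating and then elongating the same acetyl-CoA. When sterol in the endoplasmic reticulum runs low, the escort protein Scap carries the transcription factors Srebf1 and Srebf2 to the Golgi, where they are cleaved and released to switch on these enzymes. The Insig proteins hold Scap back when sterol is plentiful. Acly makes cytosolic acetyl-CoA from citrate and so feeds both branches, and in beta cells citrate exported from mitochondria is a product of glucose metabolism.

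Library totals ranged from 14283469 to 34348729 estimated counts, and the members were covered by 45 (Mvd) to 46347 (Acly) counts in a library. The transcript targeted by the tetO_Jag1 allele followed the labels: Jag1 stood at 4.281, 4.015 and 4.012 CPM (counts scaled to library size by the trimmed mean of M-values, TMM) in Control 1 to 3 and at 837.6, 524.9 and 906.9 CPM in Jag1 1 to 3. Insulin transcripts took 11.4% to 18.8% of counts. A list of 20 acinar cell markers took 9.44%, 3.37% and 0.384% of the totals of Control 1 to 3 and 0.745%, 2.51% and 9.5% of those of Jag1 1 to 3, so that Control 1 and Jag1 3 held the most exocrine RNA. Summed alpha cell markers were lower in Jag1 (14940 to 32990 CPM against 35280 to 57140), as were delta cell markers (2686 to 3278 against 3401 to 4567). Duct markers were higher (303.2 to 345.8 against 218.5 to 247.9), as were stellate and pericyte markers (252.4 to 354.9 against 172.8 to 215.3). Beta, endothelial and macrophage sums overlapped between groups, and no sum was tested. Among single genes tested, 10.5% had groups that did not overlap. A sum can be set by its most abundant markers, so these sums alone do not show a change in a cell type.

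No member passed the test for a difference between Jag1 and control islets. In edgeR (quasi-likelihood, Benjamini-Hochberg adjustment over all genes), 0 of 30 members passed, the smallest adjusted p among them was 0.955, and the background was 3 of 14073 genes (0.0213%). DESeq2 called 0 members against 0.256% of all genes, limma-voom called 0 against 0.0284%, and the authors' deposited table called 0 members against 0.0213% of the 14074 genes it lists. At an unadjusted edgeR p under 0.05 there were also 0 members, while 4.97% of all genes reached it. In bulk RNA, fewer cells of a type and less RNA per cell cannot be told apart, and this holds for every value given here.

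The values of the members were close in the 2 groups. On the log2 scale, 15 members had a fitted difference above 0 and 15 below 0, with a median of 0.0017, against 49.0% of all genes tested above 0 and a median of -0.0041. The fitted difference was smaller than 0.1 in size for 21 members (70.0%), against 41.2% of all genes tested and 47.3% of the 11229 genes within the members' range of abundance. That set shares the range only: its median level was 25.8 CPM, against 38.7 CPM for the members. The 95% interval of the fold change lay within 1.5-fold either way for 27 of 30 members, against 61.1% of all genes and 76.4% of those in the same range of abundance. The exceptions were Mvd, Hsd17b7 and Scd1, which were among the members with the fewest counts. These intervals are for single genes, without adjustment for their number.

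**Figure D1:**
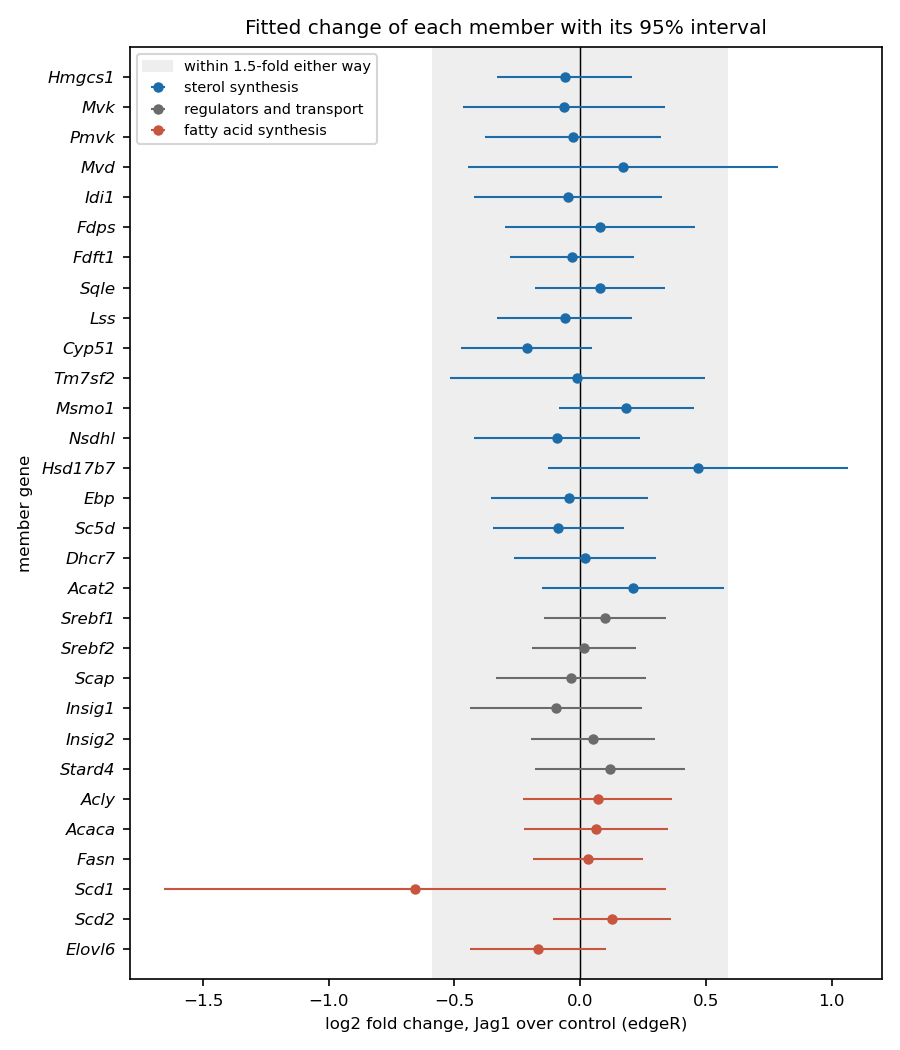
Fitted log2 fold change of Jag1 over control islets for each of the 30 members (points, edgeR) with its 95% interval (bars), coloured by role, with a grey band for 1.5-fold either way. Every interval includes 0, and only those of Mvd, Hsd17b7 and Scd1 leave the band.

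Among the sterol synthesis enzymes, 7 of 18 had a fitted difference above 0 and 11 below, from -0.21 to 0.47, with a median of -0.03. The sign of that median rested on single libraries, since leaving them out in turn gave -0.06 to 0.05, the highest without Control 3. Groups overlapped in CPM for all 18 enzymes, where 10.5% of all genes tested had groups that did not overlap.

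The first steps, from acetyl-CoA to the isoprene units, had fitted differences from -0.07 to 0.21. Acat2, the cytosolic thiolase that joins acetyl-CoA units, stood at 9.385, 8.745 and 8.433 CPM in Control 1 to 3 and at 11.85, 9.299 and 9.627 CPM in Jag1 1 to 3. The groups met only at Control 1 and Jag1 2, and they did not overlap with upper quartile scaling. The log2 fold change was 0.21 (SE 0.16, edgeR adjusted p = 0.955), and 0.10 without Jag1 1. Hmgcs1, which makes the HMG-CoA that is reduced to mevalonate, had a log2 fold change of -0.06, and the mevalonate kinases Mvk and Pmvk had -0.07 and -0.03. Mvd, which decarboxylates the product to isopentenyl diphosphate, had 0.17 on the same scale, with an interval from -0.45 to 0.79 at 45 to 142 counts a library, and it was 0.00 without Jag1 1 and 0.36 without Jag1 3. Idi1, the isomerase of that product, and Fdps, which joins the isoprene units to farnesyl diphosphate, had -0.05 and 0.08.

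The squalene steps varied more between libraries of a group than between groups. Sqle, the squalene epoxidase and a rate-controlling step of the late pathway, stood at 116.6, 139.9 and 145.9 CPM in Control 1 to 3 and at 152.8, 142.0 and 130.1 CPM in Jag1 1 to 3. Its lowest library was Control 1 and its highest Jag1 1, with the other 4 interleaved, and the log2 fold change was 0.08 (95% interval -0.18 to 0.34). Fdft1, the squalene synthase, and Lss, which closes squalene epoxide into lanosterol, had log2 fold changes of -0.03 and -0.06.

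The enzymes that turn lanosterol into cholesterol included the largest fitted differences of the sterol branch, in opposite directions. Cyp51, which removes a methyl group from lanosterol, stood at 51.26, 63.3 and 62.23 CPM in Control 1 to 3 and at 54.95, 49.74 and 47.78 CPM in Jag1 1 to 3. Control 2 and Control 3 were above every Jag1 library, but Control 1 lay among them, and the log2 fold change was -0.21 (SE 0.12, 95% interval -0.47 to 0.05, edgeR adjusted p = 0.955). Msmo1, which acts soon after Cyp51 on the next methyl groups, went the other way in value: it stood at 84.57, 81.78 and 91.2 CPM in Control 1 to 3 and at 111.0, 99.36 and 82.09 CPM in Jag1 1 to 3. Jag1 1 and Jag1 2 were above all controls and Jag1 3 was level with the lowest of them, for a log2 fold change of 0.18 (SE 0.12, edgeR adjusted p = 0.955). It was 0.08 without Jag1 1 and 0.29 without Jag1 3.

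Hsd17b7, the ketosteroid reductase that completes the removal of those methyl groups, had the largest fitted difference of the sterol branch. It stood at 6.037, 3.85 and 5.1 CPM in Control 1 to 3 and at 9.353, 4.806 and 6.674 CPM in Jag1 1 to 3. Jag1 1 was the highest library and Control 2 the lowest, and the groups overlapped. The log2 fold change was 0.47 with an SE of 0.27 and a 95% interval from -0.13 to 1.06 (edgeR adjusted p = 0.955), so that at 70 to 176 counts a library a change of up to 2.09-fold lies within the interval. Single libraries moved the value, to 0.19 without Jag1 1 and to 0.69 without Jag1 2. Nsdhl, its partner in that demethylation, had a log2 fold change of -0.09.

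The last steps to cholesterol had small fitted differences. Sc5d, the desaturase that places the ring double bond, stood at 40.28, 37.51 and 43.18 CPM in Control 1 to 3 and at 39.38, 33.58 and 41.11 CPM in Jag1 1 to 3. Only Jag1 2 lay below the controls, and the log2 fold change was -0.09 (95% interval -0.35 to 0.17). The sterol reductases Tm7sf2 and Dhcr7 and the sterol isomerase Ebp had log2 fold changes of -0.01, 0.02 and -0.04.

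All 6 regulators and transport genes had 95% intervals within 1.5-fold either way, with fitted differences from -0.10 to 0.12 and a median of 0.03 on the log2 scale. Srebf2, the factor that acts mainly on the sterol enzymes, was the steadiest of the 30 members: it stood at 102.0, 105.0 and 101.1 CPM in Control 1 to 3 and at 107.1, 101.1 and 103.0 CPM in Jag1 1 to 3. Its highest and lowest libraries differed 1.06-fold, the groups overlapped, and the log2 fold change was 0.01 (95% interval -0.19 to 0.22). Srebf1, whose products include the factor that drives the fatty acid enzymes, stood at 60.43, 65.01 and 58.21 CPM in Control 1 to 3 and at 63.77, 72.06 and 60.65 CPM in Jag1 1 to 3. Jag1 2 was the highest library and the others were interleaved, for a log2 fold change of 0.10 (95% interval -0.14 to 0.34), or 0.03 without Jag1 2. The gene table does not separate the Srebf1a and Srebf1c transcripts, and the precursor and cleaved forms of either protein are not measured by RNA.

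Insig1, the sterol-sensing retention protein and itself a target of the Srebf factors, stood at 105.5, 110.4 and 141.5 CPM in Control 1 to 3 and at 88.53, 125.7 and 119.8 CPM in Jag1 1 to 3. The lowest library was Jag1 1 and the highest Control 3, the groups overlapped, and the log2 fold change was -0.10 (95% interval -0.44 to 0.25). Stard4, which carries cholesterol between membranes, stood at 31.67, 28.71 and 38.08 CPM in Control 1 to 3 and at 35.23, 31.71 and 40.04 CPM in Jag1 1 to 3, again with overlapping groups and a log2 fold change of 0.12. That value was 0.03 without either Control 2 or Jag1 3, 0.20 without Jag1 2 and 0.24 without Control 3. Insig2, the second retention protein, and Scap had log2 fold changes of 0.05 and -0.04.

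Among the 6 fatty acid enzymes, 4 had a fitted difference above 0 and 2 below, from -0.66 to 0.13, with a median of 0.05. Acly was the only one of the 30 members whose groups did not overlap (3.33%, where 10.5% of genes tested had such groups). It stood at 1256, 1256 and 1274 CPM in Control 1 to 3 and at 1275, 1318 and 1379 CPM in Jag1 1 to 3. Control 3 and Jag1 1 were nearly equal, the fitted fold was 1.05 with a 95% interval from 0.854 to 1.29, and the log2 fold change of 0.07 did not pass the test (SE 0.14, edgeR adjusted p = 0.983). The groups of Acly also did not overlap with RLE or upper quartile scaling.

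Fasn, the synthase that builds palmitate, was nearly as steady: it stood at 70.74, 73.26 and 74.6 CPM in Control 1 to 3 and at 76.63, 70.98 and 75.95 CPM in Jag1 1 to 3. The groups overlapped and the log2 fold change was 0.03 (95% interval -0.19 to 0.25). Acaca, the carboxylase that commits acetyl-CoA to fatty acids, had a log2 fold change of 0.06. Elovl6, which lengthens palmitate, stood at 41.77, 35.31 and 41.69 CPM in Control 1 to 3 and at 38.85, 31.25 and 35.73 CPM in Jag1 1 to 3. Its groups overlapped at Control 2, and the log2 fold change was -0.17 (SE 0.12, edgeR adjusted p = 0.955), or -0.08 without Jag1 2.

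The 2 stearoyl-CoA desaturases among the members, which put the double bond into newly made fatty acids, differed in level and in spread. Scd2 (chromosome 19, 44293674 to 44306864, plus strand, GRCm38) stood at 111.2, 110.6 and 120.8 CPM in Control 1 to 3 and at 132.3, 111.9 and 129.8 CPM in Jag1 1 to 3. Jag1 1 and Jag1 3 were above all controls and Jag1 2 was among them, for a log2 fold change of 0.13 (SE 0.11, edgeR adjusted p = 0.955), which was 0.20 without Jag1 2 and 0.08 without Jag1 1. Its neighbour Scd1 (chromosome 19, 44394455 to 44407879, minus strand) stood at 15.15, 5.995 and 5.917 CPM in Control 1 to 3 and at 5.261, 4.18 and 7.914 CPM in Jag1 1 to 3. Control 1 was the highest library by a wide margin, Jag1 3 came next, and the groups overlapped.

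The log2 fold change of Scd1, -0.66, was the largest in size among the members and also the least certain (SE 0.43, 95% interval -1.65 to 0.34, edgeR adjusted p = 0.955). It rested on Control 1: without that library it was -0.05. Without Jag1 3 it was -0.94, and without both libraries, an alternative added after the values were seen, it was -0.34. The 2 libraries with the highest Scd1 were also those with the most acinar RNA (9.44% and 9.5% of counts), though Scd1 in Control 1 was far above that in Jag1 3 at the same acinar share. With the acinar marker score as a covariate the log2 fold change was -0.61.

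Markers of fat cells, which express Scd1 strongly, were low in every library. The 8 adipocyte markers summed to 4.61, 6.49 and 5.78 CPM in Control 1 to 3 and to 5.42, 4.83 and 6.50 CPM in Jag1 1 to 3, most of it Fabp4, and 2 of the 8 had counts in every library. Lep and Cfd were at 0 in all 6 libraries and Adipoq was at 0 in all controls. Control 1, the library with the most Scd1, had the lowest sum, of which Fabp4 made up 4.23 CPM. Markers of Schwann cells, which make lipid for myelin, summed to 91.4 to 105 CPM, lowest in Control 1. Of each sum Mbp alone made up 63.0 to 73.2 CPM, while Sox10 stood at 0.142 to 0.744 CPM. The part of fat or Schwann cells in the Scd1 values was not tested, nor that of acinar RNA beyond the covariate.

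**Figure D2:**
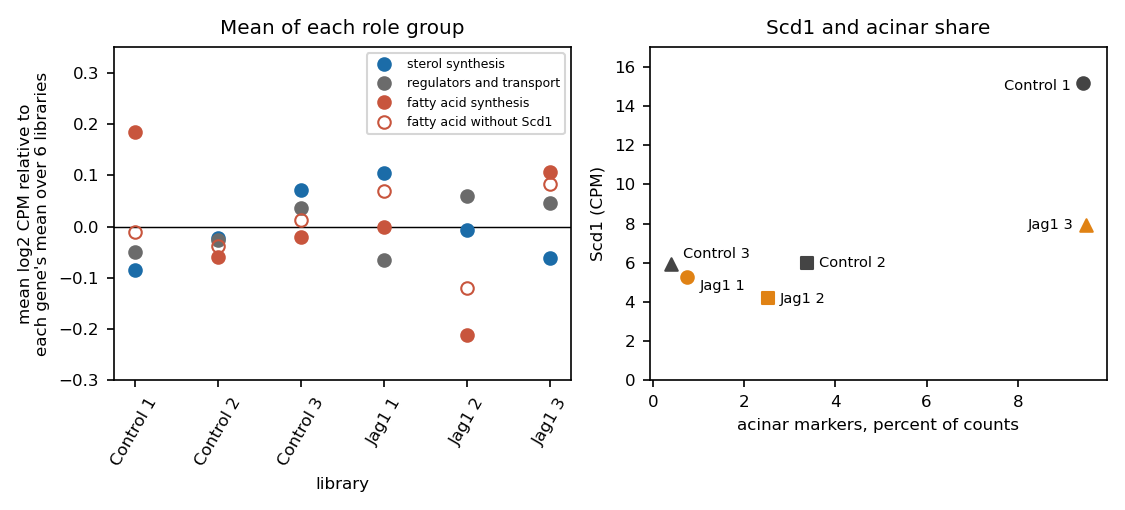
Left, the mean log2 CPM of each role group in each of the 6 libraries, relative to each gene's own mean over the libraries, with the fatty acid group also drawn without Scd1 (open circles). Right, Scd1 in CPM against the acinar marker share of counts, 1 point per library; Control 1 stands at 15.15 CPM, above Jag1 3 at 7.914 CPM.

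The sterol and fatty acid branches differed from each other by less than the spread between libraries. The median log2 fold change of the sterol enzymes minus that of the fatty acid enzymes was -0.08. A related contrast was taken in each library, as the difference between the branches' medians of log2 CPM relative to each gene's mean. It was -0.05, 0.04 and 0.08 in Control 1 to 3 and lay at 0.00, 0.17 and -0.15 in Jag1 1 to 3. Its mean was 0.021 in controls and 0.007 in Jag1, with a pooled SD of 0.12 within groups. That SD belongs to these library values and not to the fitted -0.08. The Jag1 libraries spanned all the controls. The sign of the fitted difference was not stable: it was 0.11 with means over members in place of medians, 0.02 without Control 3 and 0.02 without Jag1 3, against -0.10 without Control 1 and -0.10 with Scd1 left out. Library by library, the mean log2 CPM of the sterol enzymes relative to each gene's mean was -0.08, -0.02 and 0.07 in Control 1 to 3 and reached 0.10, -0.01 and -0.06 in Jag1 1 to 3. That of the fatty acid enzymes was 0.18, -0.06 and -0.02 in Control 1 to 3 and came to 0.00, -0.21 and 0.11 in Jag1 1 to 3. Each branch was spread over both groups, and without Scd1 the Control 1 value of the fatty acid enzymes was -0.01. The regulators ranged from -0.07 to 0.06 on this scale, with both ends among the Jag1 libraries.

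The spread between libraries of a group was alike in the 3 roles. The median SD of log2 CPM within groups was 0.15 for the sterol enzymes, 0.15 for the regulators and 0.13 for the fatty acid enzymes, beside 0.19 over all genes tested and 0.17 over those within the members' range of abundance. Within the fatty acid enzymes it ran from 0.041 for Acly and 0.051 for Fasn to 0.63 for Scd1, which was the highest of all members. Srebf2 had the lowest of all members at 0.037, and Hsd17b7 the highest of the sterol enzymes at 0.40.

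**Figure D3:**
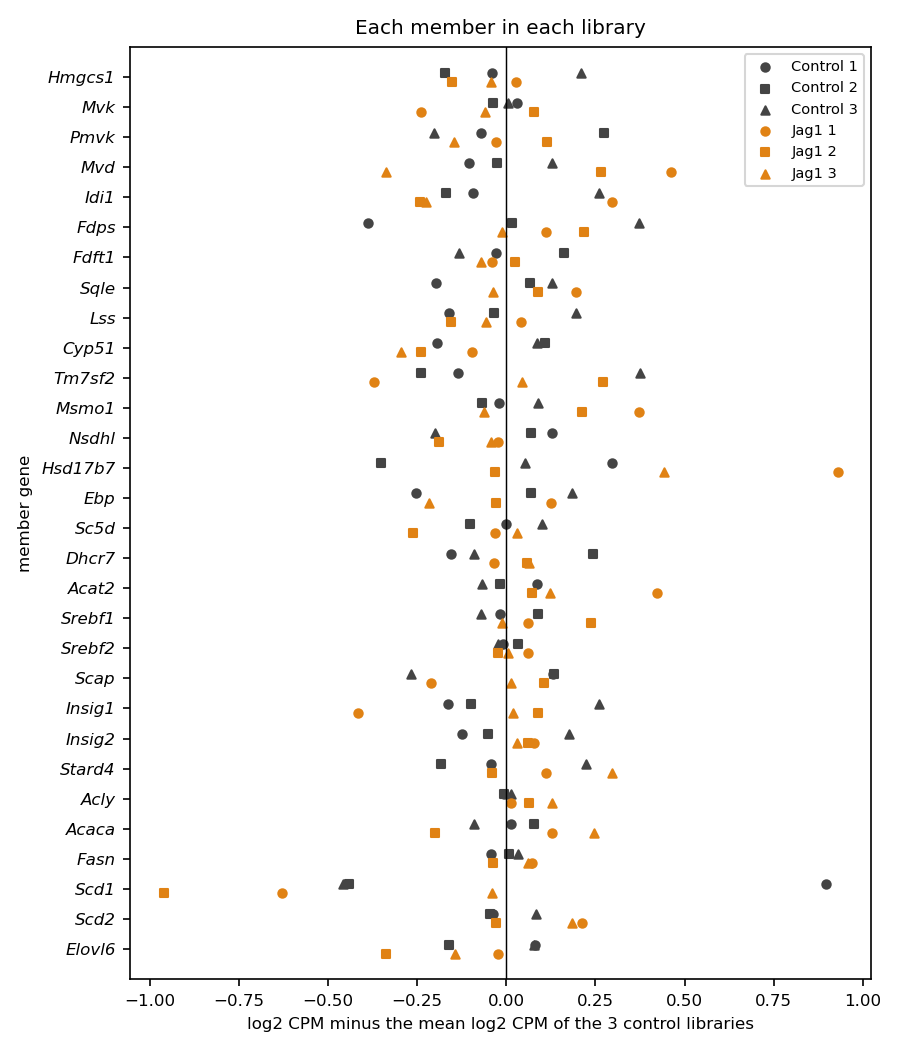
Each member's log2 CPM in each library minus the mean of the 3 control libraries; symbols give the library number and colours the group (dark, control; orange, Jag1). Srebf2, Acly and Fasn stay close to 0 in all 6 libraries, while Scd1 in Control 1 and Hsd17b7 in Jag1 1 lie farthest to the right.

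The members differed in level far more than the groups did. Per kilobase of exon, Acly (chromosome 11, 100476353 to 100528000, minus strand, GRCm38) averaged 245 CPM per kb over the 6 libraries, from 237.8 to 261.2, and it held 47.0% to 50.4% of the members' summed CPM. Insig1 followed at 37.3 CPM per kb, and Acly was 5.27 to 8.44 times as high as Insig1 within a library. Sqle came next at 24.9 CPM per kb, then Scd2 at 21.9, Insig2 at 16.4, Msmo1 at 14.9, Srebf2 at 14.4 and Hmgcs1 at 14.3. This order depends on the length used: on the longest transcript of each gene Msmo1 stood at 30.88 CPM per kb, level with Sqle at 30.87 and above Scd2 at 21.9 and Insig2 at 21.16. The lowest by exon length were Scd1 at 1.51 and Hsd17b7 at 1.17 CPM per kb. Neighbours in this order mostly did not differ beyond their spread over libraries, and only the ranges of Acly, Insig1, Scd2 and Lss did not overlap that of the next gene down.

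Ratios between related enzymes, also per kilobase, gave the balance within each step. Acly was 34.5 to 38.5 times as high as Fasn, a ratio that hardly moved between libraries. Scd2 was higher than Scd1 in every library, at 6.58 times Scd1 in Control 1 and up to 24.0 times in Jag1 2. Srebf2 was 1.1 to 1.36 times as high as Srebf1, and Insig1 1.69 to 2.52 times as high as Insig2.

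**Figure D4:**
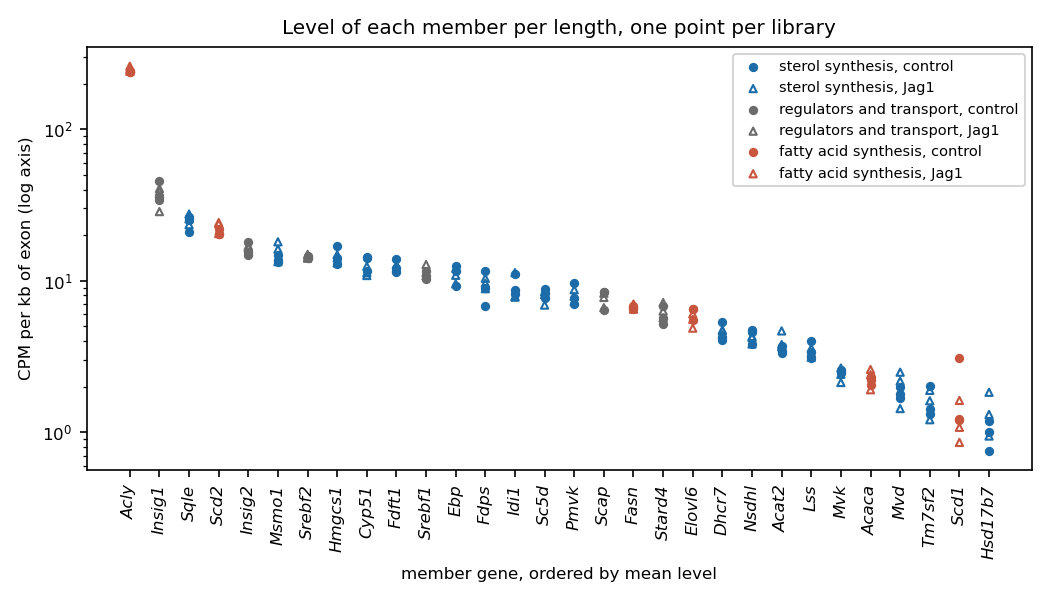
Level of each member in CPM per kilobase of exon on a log axis, 1 point per library (filled, control; open, Jag1), ordered by mean level and coloured by role. Acly stands alone at the top at 237.8 to 261.2 CPM per kb, and filled and open points overlap in nearly every column.

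Outside the expression data, most of the sterol enzymes shared 2 promoter motifs. RefSeq windows (GRCm38.p6) were found for 24 of the 30 members, and not for Fdps, Fdft1, Sqle, Scd1, Scd2 and Stard4. The 250 bases before the start site, taking the first window of each gene, were searched on both strands. The CCAAT box (CCAAT), bound by NF-Y, a factor that acts together with the Srebf proteins, was found in 13 of 15 sterol enzymes (86.7%), 4 of 5 regulators (80.0%) and 1 of 4 fatty acid enzymes (Fasn), against 36.2% of the 10891 tested genes with a window. The GC box (GGGCGG), bound by Sp1, was found in 14 of 15 sterol enzymes (93.3%), in 2 of 5 regulators and in 1 of 4 fatty acid enzymes (Acly), against 58.1% of tested genes with a window. Both boxes occurred together in 12 of 15 sterol enzymes (80.0%), in 2 of 5 regulators (Srebf2 and Insig1) and in 0 of 4 fatty acid enzymes, against 20.9% of tested genes with a window. The classical sterol regulatory element in the form TCACNCCAC was found in Hmgcs1 alone among the members with a window, against 0.872% of tested genes. Only this exact form was searched, so other forms of the element would be missed. The E-box CACGTG was found in Hsd17b7, Sc5d and Insig1 (12.5% of members with a window) against 8.14%. A match is a description of letters and not a site in use.

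The 150 bases before the start site are shown for 7 members, to compare 4 sterol enzymes that carry both boxes with Insig1, Fasn and Acly. They run 5′ to 3′ on the gene's own strand (RefSeq, GRCm38.p6), and capitals mark the matches to the 4 motifs or to their reverse complements.
Hmgcs1 (chr13:119690201-119690350, plus strand): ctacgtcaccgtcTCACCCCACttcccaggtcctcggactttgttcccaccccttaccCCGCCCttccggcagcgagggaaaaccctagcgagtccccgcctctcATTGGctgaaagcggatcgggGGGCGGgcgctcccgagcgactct
Idi1 (chr13:8885456-8885605, plus strand): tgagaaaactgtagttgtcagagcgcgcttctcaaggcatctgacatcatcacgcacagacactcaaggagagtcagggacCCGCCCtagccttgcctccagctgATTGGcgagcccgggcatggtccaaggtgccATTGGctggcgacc
Cyp51 (chr5:4104698-4104847, minus strand): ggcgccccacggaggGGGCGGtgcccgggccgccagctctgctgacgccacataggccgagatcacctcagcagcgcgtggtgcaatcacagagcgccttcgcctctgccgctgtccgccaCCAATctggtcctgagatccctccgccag
Lss (chr10:76531455-76531604, plus strand): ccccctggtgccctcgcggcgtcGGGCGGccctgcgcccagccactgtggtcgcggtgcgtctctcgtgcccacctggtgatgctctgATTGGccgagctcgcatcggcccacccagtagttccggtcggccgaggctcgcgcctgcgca
Insig1 (chr5:28071262-28071411, plus strand): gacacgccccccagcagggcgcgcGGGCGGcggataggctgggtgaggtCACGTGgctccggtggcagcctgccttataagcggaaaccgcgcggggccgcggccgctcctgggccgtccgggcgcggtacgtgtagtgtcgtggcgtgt
Fasn (chr11:120824548-120824697, minus strand): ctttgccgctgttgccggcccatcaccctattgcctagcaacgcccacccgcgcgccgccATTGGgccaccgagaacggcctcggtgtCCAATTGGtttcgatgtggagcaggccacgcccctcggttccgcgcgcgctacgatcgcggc
Acly (chr11:100528001-100528150, minus strand): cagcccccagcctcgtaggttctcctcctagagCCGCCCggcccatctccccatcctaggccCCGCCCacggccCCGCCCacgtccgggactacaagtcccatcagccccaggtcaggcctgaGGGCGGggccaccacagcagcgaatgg
In Hmgcs1 the sterol regulatory element begins 137 bases before the start site, and the nearest CCAAT box, on the reverse strand, begins 45 bases before it, the same distance as the first of a pair in Idi1. Fasn has a CCAAT box on each strand in overlapping letters 62 and 59 bases before the start site, a further one at 90, and no GC box. Acly has 4 GC boxes and no CCAAT box in these bases. Insig1 has its E-box 101 bases before the start site, beside a GC box at 126, and its CCAAT box lies farther out, at 216. The log2 fold changes of the 7 genes were -0.06 for Hmgcs1, -0.05 for Idi1, -0.21 for Cyp51, -0.06 for Lss, -0.10 for Insig1, 0.03 for Fasn and 0.07 for Acly, none past the test.

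The other genes of both pathways gave no call either. Of 16 further sterol genes, 5 had a fitted difference above 0 and 11 below, with a median of -0.03, and 0 passed in edgeR after Benjamini-Hochberg adjustment, 0 passed DESeq2 or limma-voom, and 0 had an unadjusted edgeR p under 0.05. Npc2, a cholesterol carrier of the lysosome, stood at 130.8, 135.9 and 136.1 CPM in Control 1 to 3 and at 140.3, 154.6 and 140.0 CPM in Jag1 1 to 3. Its groups did not overlap, with Jag1 2 the highest library, and the log2 fold change was 0.11 (95% interval -0.11 to 0.33). Such groups were found for 2 of these 16 genes (12.5%), near the 10.5% of all genes tested.

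Of 14 further fatty acid genes, 13 were tested, since Scd4 had too few counts. Of these 13, 6 had a fitted difference above 0 and 7 below, and 0 passed edgeR with Benjamini-Hochberg adjustment, DESeq2 or limma-voom, or had an unadjusted edgeR p under 0.05. The smallest p-values belonged to the desaturase Fads2, the acetyl-CoA synthetase Acss2 and Mlxipl, the glucose-responsive factor ChREBP, with log2 fold changes of 0.36, 0.18 and -0.32.

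Some members share sequence with other genes, so their counts may include or lose reads. At 95% identity or more over at least 200 bases, 9 members matched another gene's transcript. Scd2 and Scd1 matched at 95.5% over 623 bases, and Acat2 matched Acat3 at 97.7% over 1477 bases, where Acat3 had 4 counts over all libraries. Acat2 also matched Tcp1 on the opposite strand at 98.7% over 445 bases, and Tcp1 had 15487 counts over all libraries against 1167 for Acat2. The exons of 11 members overlapped those of another gene, such as 774 bases between Fdft1 and Ctsb on opposite strands and 532 bases between Tm7sf2 and Vps51 on the same strand. The labels and headers used here do not say whether strand was used in the counting.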

How the data were processed

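RNA from whole islets was sequenced in 3 control and 3 Jag1 libraries. The authors deposited a table of estimated counts by gene symbol with a column for each library, not normalized. The submitters' processing notes name bcl2fastq, kallisto, limma and the build GRCm38 and give no versions. The sources used here do not say how transcript estimates became gene counts. The authors' deposited comparison holds log2 fold changes and log2 mean expression, p-values (P.Value and adj.P.Val) and a score each in t and B, per the file headers. A row naming no gene held 0.00896% to 0.0155% of counts and was left out.

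Counts were rounded and tested in edgeR 4.0.16 (R 4.3.3) by the robust quasi-likelihood test with TMM scaling. The filter was filterByExpr at a minimum count of 10, and p-values were adjusted by Benjamini-Hochberg over all 14073 genes, with a threshold of 0.05. CPM used TMM library sizes, with a prior count of 2 for log2 CPM. Levels per length used the union of GENCODE vM21 exons. A count of 3, which a count of 0 allows, is 0.0853 to 0.204 CPM, for counting error only.

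Members and lists were chosen with earlier results of these data known. In each role the members of smallest p (5, 3 and 3), any whose groups did not overlap, and Srebf1, Srebf2, Insig1, Sqle, Fasn, Scd1 and Scd2 are given library by library. The other members are given by fitted value. For the wider lists the 3 of smallest p are named, except those not reported here. Role groups are described by counts and medians, with no test. The steps were tested on simulated data. Alternatives were RLE and upper quartile scaling, DESeq2 1.42.0, limma-voom (limma 3.58.1), no filter or 1 CPM in 3 libraries, a fit that is not robust, a replicate block, acinar markers as covariate or left out, and libraries left out. Means over members, Acly left out and the longest transcript were also tried. Shared sequence was searched with BLAST 2.17.0. Figures were drawn with matplotlib 3.10.9.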

Additional observations from a re-analysis of the deposited data

How the results depend on the processing

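No member passed the threshold under any of the 17 alternatives, where the lowest adjusted p of a member was 0.837. Genes called over the whole table numbered 36 with DESeq2, 9 with no filter on low counts, 2 to 6 with each library left out in turn (6 when Jag1 2 was dropped, 5 when Jag1 3 was), and 7 with Control 1 and Jag1 3 both left out, a choice made after seeing the data. Of 510 values for single members, 34 in 17 members changed sign, and the largest main value of those members was 0.0966 in size. The other 13 members changed sign under none of these settings. Tm7sf2 turned to 0.0111 with upper quartile scaling, 0.0563 with limma-voom, 0.0024 with no filter and 0.0098 with the acinar covariate. Without Control 1 and Jag1 3 together, Fdps was -0.0294, Dhcr7 -0.0681, Scap 0.0149 and Acaca -0.0190. With each library left out in turn, the log2 fold changes ranged from -0.1444 to 0.0502 (Hmgcs1), -0.1452 to 0.0130 (Mvk), -0.1244 to 0.1215 (Pmvk), -0.2431 to 0.0936 (Idi1), -0.0874 to 0.2831 (Fdps), -0.0963 to 0.0517 (Fdft1), -0.0074 to 0.1437 (Sqle), -0.1340 to 0.0408 (Lss), -0.1696 to 0.1966 (Tm7sf2), -0.1551 to 0.0512 (Ebp), -0.1453 to 0.0002 (Sc5d), -0.0535 to 0.1524 (Dhcr7), -0.0091 to 0.0352 (Srebf2), -0.1562 to 0.0492 (Scap), -0.1909 to 0.0455 (Insig1), -0.0025 to 0.1448 (Insig2) and -0.0304 to 0.1876 (Acaca). The sterol median ranged from -0.0602 to 0.0507 and the fatty acid median from -0.0059 to 0.0721. The sterol minus fatty acid difference ranged from -0.1039 to 0.0229. With means over members that difference was 0.1144 and the fatty acid value -0.0887, and the Acly level was 292.1 CPM per kb on the longest transcript. The causes of these shifts were not tested.

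No pairing by library number was seen: the deviations of same-numbered libraries correlated at -0.186, 0.11 and -0.294, and 2 of 6 libraries correlated best with their own number. With 3 libraries a group, this check cannot show whether same-numbered libraries were handled together. With a replicate block, 3 genes and 0 members were called, with medians of -0.0259 (sterol) and 0.0436 (fatty acid). The intervals of Mvd, Hsd17b7 and Scd1 reach beyond 1.5-fold, and these members had few counts. Mvk and Tm7sf2 had counts similar to those of Scd1, and their intervals stayed within 1.5-fold. The part of depth in the width of the intervals was not tested. With 3 libraries a group, a change within a member's interval could be present without a call. The intervals are unadjusted and a call needed an adjusted p under 0.05, so larger changes could also go uncalled. Adamts1, which is not a member, had a log2 interval from 0.515 to 1.383 and an edgeR adjusted p of 0.392. RNA does not measure cleavage of the Srebf proteins, enzyme activity or lipid content.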
